A study of Mus musculus with 8 samples.

Results

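Leptin is a hormone of fat cells that acts through its receptor and the JAK-STAT pathway, in the hypothalamus above all. Mice homozygous for the ob mutation make no functional leptin and become obese, with a fatty and insulin-resistant liver. In the rodent liver many secreted proteins and steroid-handling enzymes differ between the sexes because growth hormone is released in pulses in males and more evenly in females. Resident macrophages, the Kupffer cells, line the sinusoids of the organ.

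The comparison described here sets the livers of mice given leptin at 25 ng/hr against those of mice given 0 ng/hr, and covers 6 of the 8 arrays of the study. The treated arrays are the 3 whose titles give 25 ng/hr leptin (replicates 6, 7 and 8) and the controls are the 3 whose titles give 0 ng/hr leptin (replicates 1, 2 and 3). Both groups are adult male mice, treated for 12 days, and the series title names them as ob/ob, so the controls lack functional leptin too. The other 2 arrays come from livers at 12.5 ng/hr (replicates 4 and 5). Their levels are given beside those of the genes that differed between 25 and 0 ng/hr. The age beyond adult, the strain background, the route and the vehicle are not given in the labels. The labels contradict themselves in their agent field, which calls the 25 ng/hr samples untreated and names leptin as the agent of the 0 ng/hr samples. Groups were taken from the titles, with which the source and dose fields are at one. Every direction below rests on the dose in the titles.

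Total liver RNA was hybridised to the 8 positions of 1 Illumina BeadChip. All 3 doses lie side by side on that chip in the order of dose, so position on the chip and dose cannot be told apart. Each array had 12094 to 12783 probes above background (47.1% to 49.7% of all), and the mean intensity per array lay between 456 and 532. Log2 signals correlated across features at r from 0.990 to 0.993 within the 25 ng/hr arrays, at 0.988 to 0.993 within the 0 ng/hr arrays and at 0.981 to 0.991 between the groups. No label says outright that the arrays stem from separate animals, and p-values then measure only the spread among these arrays, which may be technical. Hepatocyte markers were at nearly the same level in both groups: 9 of the 12 markers listed were tested, their summed intensity was 244458 to 254565 at 25 ng/hr and 239960 to 250095 at 0 ng/hr, and none passed the test. The probes of the other 3, Alb, Fgb and Tat, were above background on fewer than 2 arrays.

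A control array stood apart. Replicate 1 at 0 ng/hr was more than 2 log2 units above all 7 other arrays for 17 features, against 0 or 1 features for every other array. Reg1, a secreted protein of pancreatic acinar cells, had a log2 signal of 10.96 there and at most 6.34 elsewhere. Adipoq, the fat-cell hormone adiponectin, was at 6.77 there and at most 5.06 elsewhere, Lep, leptin itself, was at 6.94 against at most 5.40, and Acta2, smooth muscle actin, was at 12.10 against at most 9.05. The test of the highest dose against 0 ng/hr was repeated without this array for the call counts, the genes named and the gene lists. Of the 90 calls described below, 24 then still passed. Promoter matches, neighbouring genes, ranks of the treated arrays and comparisons with the intermediate dose were computed only with this array included. Among the genes that were the only call of their list, Ces3b, Pdia6, Glul, H2-DMa, Smpd3, Mt1 and Slc6a8 did not pass without it (adjusted p 0.0576 to 0.110).

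**Figure D1:**
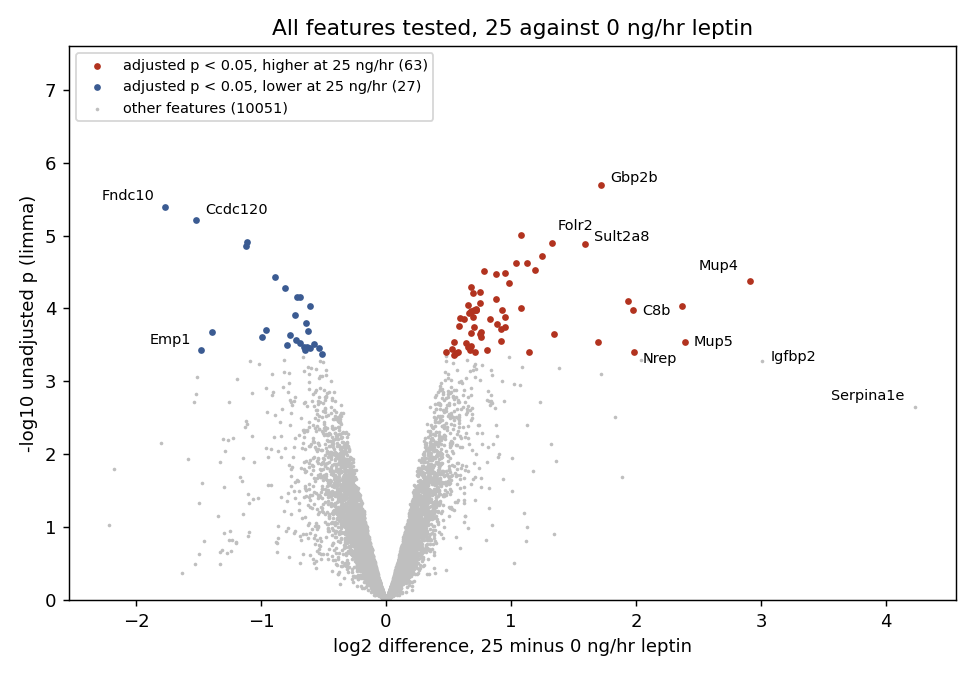
Each point is 1 of 10141 features; the x axis is the log2 difference, 25 minus 0 ng/hr, and the y axis is minus log10 of the unadjusted p of the fit. The 63 features past the threshold on the higher side (red) reach further from 0 than the 27 on the lower side (blue), and Igfbp2 and Serpina1e show large differences without passing.

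Of 10141 features above background, 90 differed between 25 and 0 ng/hr at a Benjamini-Hochberg adjusted p under 0.05 in limma (0.887%). At 25 ng/hr 63 of them were higher (0.621% of all features) and 27 were lower (0.266%). The median difference over all features was -0.0025 on the log2 scale, 49.5% were above 0, and 5% lay below -0.41 and 5% above 0.39. Of the 90, 18 rose and 6 fell by more than 2-fold. Over all features, passing or not, 41 were more than 2-fold higher and 57 more than 2-fold lower. Of those that did not pass, 23 higher and 51 lower, 23 and 26 stayed beyond 2-fold without control replicate 1. The 25 and 0 ng/hr arrays did not overlap for any of the 90, as was also so for 11.2% of all features on the higher and 11.7% on the lower side. Adjusted p-values of the 90 ran from 0.0175 to 0.0496, a further 193 features (112 higher and 81 lower) lay between 0.05 and 0.1, and 1735 (17.1%) had an unadjusted p under 0.05. Depending on the array left out, limma called 30 (without replicate 1 at 0 ng/hr), 0 (without replicate 2), 6 (without replicate 3), 0 (without replicate 6 at 25 ng/hr), 3 (without replicate 7) or 131 features (without replicate 8), and 15 without either 12.5 ng/hr array. With 0 calls the lowest adjusted p was 0.0529 without replicate 2 and 0.0506 without replicate 6, where 1603 and 1260 features still had an unadjusted p under 0.05. In each of these fits all 90 features kept their direction and an unadjusted p under 0.05.

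Genes known for higher expression in male than in female mouse liver held several of the larger rises. Of 15 male-biased liver genes tested, 5 rose at 25 ng/hr, against 0.621% of all features. None of the 15 fell, and the median difference was 1.04 on the log2 scale. Without replicate 6 that median was 0.68, and without control replicate 1 it was 1.06 with 1 of the 15 past the threshold. Under median scaling, a different normalization between arrays, 3 of the 15 passed. The 5 genes were C8b, C8a, Elovl3, Nudt7 and Ugt2b1. Serpina1e, a serine protease inhibitor of the alpha-1-antitrypsin family, had the largest difference of any feature at 4.23 (SE 1.0, adjusted p = 0.0916), which did not pass. Its log2 signals were 13.61, 11.77 and 8.54 at 25 ng/hr (replicates 6, 7 and 8 here and below), against 7.21, 7.02 and 6.99 at 0 ng/hr (replicates 1, 2 and 3). All 25 ng/hr arrays lay above all controls, but they differed among themselves by more than 5 log2 units.

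Major urinary proteins are small pheromone-binding lipocalins that the male mouse liver secretes in bulk. Mup4 rose most of all features that passed, with log2 signals of 10.26, 9.26 and 8.44 at 25 ng/hr, against 6.36, 6.12 and 6.76 at 0 ng/hr. That is a 7.51-fold rise (log2 difference 2.91, SE 0.39, adjusted p = 0.0247). The groups did not overlap, and replicate 6 was the highest. Mup5 had 12.06, 11.13 and 9.997 at 25 ng/hr, against 8.77, 8.45 and 8.79 at 0 ng/hr, a 5.25-fold rise (2.39, SE 0.42, adjusted p = 0.0435). Its other probe gave a smaller difference of 1.26. Mup2, with 14.81, 14.73 and 14.58 at 25 ng/hr and 14.08, 13.88 and 14.07 at 0 ng/hr, rose by 0.70 (SE 0.11, adjusted p = 0.0288). Mup1 and Mup3, whose probes are among the brightest on the array, differed by 0.22 and 0.43 and did not pass. Without control replicate 1, 1 of the 5 passed and their median was 0.74, against 0.70 with it. Probes of this family share much of their sequence, so a signal may come from several members.

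Elovl3, which extends fatty acids to very long chains, was at 7.21, 7.0 and 6.34 at 25 ng/hr, against 5.52, 5.34 and 5.67 at 0 ng/hr (1.34, SE 0.23, adjusted p = 0.0386). Nudt7, a peroxisomal hydrolase of coenzyme A, was at 14.29, 13.91 and 13.79, against 12.99, 12.91 and 12.97 in controls (1.04, SE 0.13, adjusted p = 0.0217), and its other probe gave 1.45. Ugt2b1, a glucuronosyltransferase, rose by 0.72 (SE 0.11, adjusted p = 0.0288). Among male-biased genes that did not pass, Cyp7b1, the oxysterol hydroxylase of bile acid synthesis, differed by 1.09 (SE 0.21, adjusted p = 0.0595), and Hsd3b5, a steroid reductase, was at 8.14 on replicate 6 but at 4.98 and 4.42 on the other 25 ng/hr arrays, within reach of the 4.38 to 4.59 of the controls.

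None of the 13 female-biased liver genes tested passed, 1 of 13 was above 0, and their median difference was -0.94. Leaving out replicate 6 at 25 ng/hr brought the median to -0.41, and leaving out control replicate 1 brought it to -0.73. Cyp2b13, a female-predominant cytochrome P450, was at 7.38, 9.81 and 12.87 at 25 ng/hr, against 13.11, 12.14 and 11.45 at 0 ng/hr (-2.21, SE 1.18, adjusted p = 0.380). Cyp2b9 was at 9.81, 11.15 and 12.45 at 25 ng/hr, against 12.91, 12.72 and 12.18 at 0 ng/hr (-1.47, SE 0.54, adjusted p = 0.218). Both were lowest on replicate 6, while replicate 8 lay among the controls. Cyp2b10 was at 9.27, 9.05 and 10.51 at 25 ng/hr, against 11.21, 10.98 and 11.23 at 0 ng/hr, without overlap (-1.53, SE 0.35, adjusted p = 0.0870).

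The 3 arrays at 25 ng/hr were unequal for the larger rises. Among the 18 features that rose more than 2-fold, replicate 6 was the highest of the 3 for 15 (83.3%) and replicate 8 the lowest for 15 (83.3%), where over all features replicate 6 was highest for 31.8% and replicate 8 lowest for 35.7%. The median SD of those 18 was 0.287 at 25 ng/hr and 0.193 at 0 ng/hr. Over all features it was 0.136 at 25 ng/hr and 0.134 at 0 ng/hr.

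**Figure D2:**
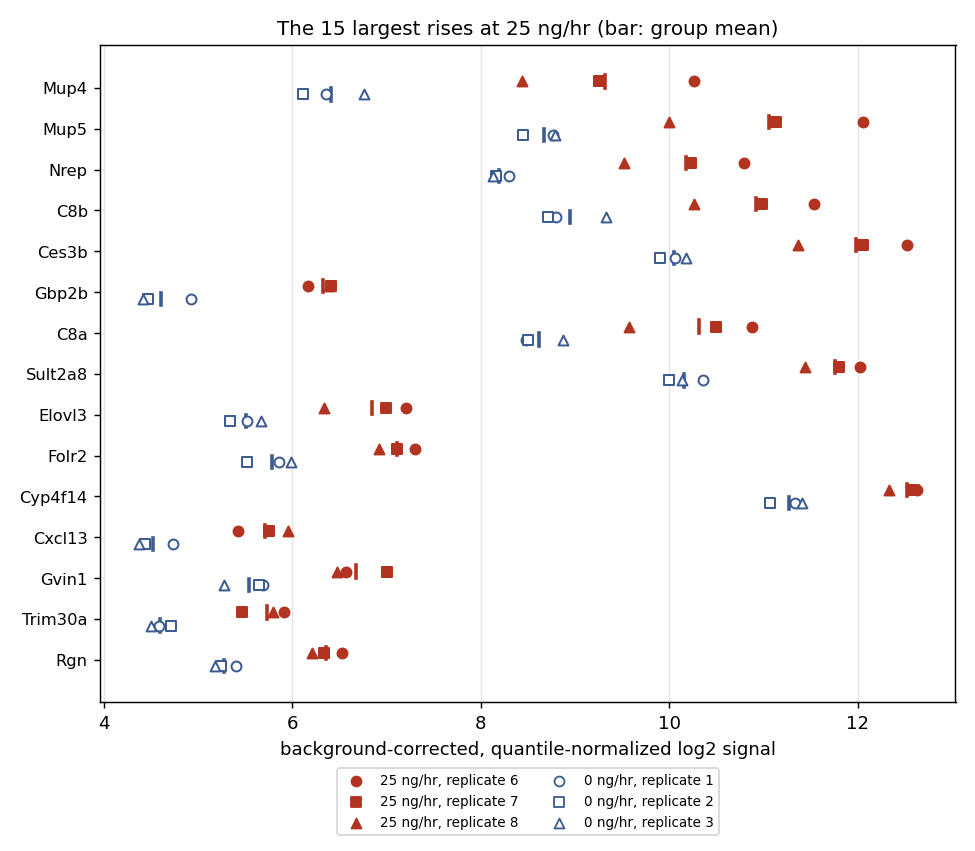
Log2 signals of the 15 largest rises, with the 3 arrays at 25 ng/hr (red, filled), the 3 at 0 ng/hr (blue, open) and bars at the group means. The groups do not overlap for any gene, and for Mup4, Mup5, C8b and Ces3b replicate 6 (circle) lies highest and replicate 8 (triangle) lowest of the treated arrays.

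The liver is the main source of complement in blood, and 2 of 20 complement genes tested rose, against 0.621% of all features. C8a and C8b encode the alpha and beta chains of component C8, which joins the membrane attack complex. They lie next to each other on chromosome 4. Among the calls that match a current protein-coding gene they were the only pair of neighbours. The 3 calls without a current symbol could not be placed. C8b had log2 signals of 11.53, 10.98 and 10.26 at 25 ng/hr, against 8.80, 8.72 and 9.33 at 0 ng/hr, a 3.93-fold rise (1.98, SE 0.30, adjusted p = 0.0288). C8a had 10.88, 10.49 and 9.57 at 25 ng/hr, against 8.48, 8.51 and 8.87 at 0 ng/hr, a 3.24-fold rise (1.70, SE 0.30, adjusted p = 0.0435). C6, another component of the complex, did not pass (2.04, SE 0.38, adjusted p = 0.0531), although its lowest treated array, at 8.88, lay above its highest control, at 7.77. The other 17 complement genes tested did not pass either. The median over all 20 was 0.23, with 17 above 0, where 49.5% of all features were above 0. Without control replicate 1 it was 0.27 and limma called none of the 20, while C8a and C8b kept an unadjusted p under 0.05, and under median scaling 1 of the 20 passed. C8a and C8b also stand in the male-biased list. The coagulation and fibrinolysis list had a median of 0.13 over 22 genes, none of which passed. Of these 22, 19 lay above 0. Treated arrays lay wholly above the controls for 8 and wholly below for 1, against 11.2% and 11.7% of all features. F11 differed most, by 1.23 (SE 0.28, adjusted p = 0.0870).

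Of the interferon-inducible genes, which respond to virus and inflammation, all 24 tested lay above 0, with a median of 0.58, and 14 of 24 (against 11.2% of all features) had treated arrays wholly above the controls. In limma 3 of the 24 rose, against 0.621% of all features: Gbp2b, Trim30a and Ifit3. Without control replicate 1, 2 of the 24 passed and the median was 0.65, and under median scaling 2 passed and 22 of 24 lay above 0. Gbp2b, a guanylate-binding GTPase of host defence, had the lowest p of all features. Its log2 signals were 6.17, 6.41 and 6.40 at 25 ng/hr, against 4.92, 4.47 and 4.42 at 0 ng/hr (1.72, SE 0.16, adjusted p = 0.0175). It was above background on all 3 arrays at 25 ng/hr and on 1 of 3 at 0 ng/hr. Trim30a, a ubiquitin ligase of the tripartite motif family, was at 5.92, 5.47 and 5.80 at 25 ng/hr, against 4.58, 4.72 and 4.50 at 0 ng/hr (adjusted p = 0.0217). No control array was above background for it, so its rise is at least 1.83-fold. Ifit3, an antiviral RNA-response protein, was at 8.65, 8.45 and 8.48, against 7.51, 7.97 and 7.33 in controls (0.92, SE 0.16, adjusted p = 0.0435), and its other 2 probes gave 0.99 and 1.02.

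Outside that list, Gvin1, an interferon-induced very large GTPase, rose by 1.14 (SE 0.21, adjusted p = 0.0464). Ifi47, Ifitm3 and Apol9b, which were named after their values were seen, rose by 0.92, 0.71 and 0.93. Cxcl13, a chemokine that attracts B cells, was at 5.42, 5.76 and 5.96 at 25 ng/hr, against 4.74, 4.44 and 4.38 at 0 ng/hr (adjusted p = 0.0228). It was above background on no control array, and the rise is at least 1.81-fold. Cxcl9, a chemokine induced by interferon gamma, differed by 1.32 (adjusted p = 0.14) and did not pass.

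Promoters are shown for 4 of these genes because they hold the core of the interferon-stimulated response element. Each is the 250 bases before the RefSeq gene start (build GRCm38.p6), 5′ to 3′ on the gene's strand, with matches to GAAANNGAAA on either strand in capitals. The matches in Apol9b overlap.
Gbp2b, chr3:142594597-142594846, plus strand: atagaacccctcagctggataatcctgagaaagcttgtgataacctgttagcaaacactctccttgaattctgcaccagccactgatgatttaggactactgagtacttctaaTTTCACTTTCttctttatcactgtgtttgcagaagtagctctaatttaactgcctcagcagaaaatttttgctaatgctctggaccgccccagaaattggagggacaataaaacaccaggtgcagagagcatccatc
Ifit3, chr19:34583279-34583528, plus strand: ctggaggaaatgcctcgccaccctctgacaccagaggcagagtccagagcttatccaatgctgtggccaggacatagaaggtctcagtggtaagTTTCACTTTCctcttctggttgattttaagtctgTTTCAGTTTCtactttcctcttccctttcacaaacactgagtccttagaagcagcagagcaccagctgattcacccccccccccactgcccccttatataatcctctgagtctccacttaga
Apol9b, chr15:77728822-77729071, plus strand: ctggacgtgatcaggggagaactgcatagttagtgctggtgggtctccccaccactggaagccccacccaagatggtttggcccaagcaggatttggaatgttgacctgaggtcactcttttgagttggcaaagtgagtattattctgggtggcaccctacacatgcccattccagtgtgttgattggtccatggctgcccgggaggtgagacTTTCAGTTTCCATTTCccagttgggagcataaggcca
Trim30a, chr7:104465194-104465443, minus strand: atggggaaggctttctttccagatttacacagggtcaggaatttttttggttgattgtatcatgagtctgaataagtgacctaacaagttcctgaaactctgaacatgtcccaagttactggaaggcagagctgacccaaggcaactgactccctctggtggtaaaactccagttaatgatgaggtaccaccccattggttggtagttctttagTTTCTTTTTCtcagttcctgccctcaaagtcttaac

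GAAANNGAAA, searched on both strands, occurred in the 250-base window of 9 of the 47 genes that rose and had a promoter in the table (19.1%) and of 1 of 19 that fell (5.26%). It occurred in 2.75% of 7860 tested genes, in 3.04% of all 27025 promoters of the table and in 12 of 20 of the interferon list. The 9 were Gbp2b, Ifit3, Apol9b, Trim30a, Sult2a8, Ugt2b1, Asic5, Aif1 and Glul. Ifit3 and Apol9b held 2 matches each. The palindrome TTCNNNGAA, bound by STAT factors and searched the same way, occurred in 2 of 47 genes that rose (4.26%, C8a and Rasgrp1), in 2 of 19 that fell (10.5%, Emp1 and Chchd6), in 5.94% of tested genes and in 7.18% of all promoters. The same palindrome occurred in 6 of 20 of the interferon list. A match describes these letters only and is not evidence of binding.

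Of 14 markers of macrophages and Kupffer cells tested, 6 rose at 25 ng/hr, against 0.621% of all features. Of the 14 markers, 13 lay above 0, against 49.5% of all features, and the median difference was 0.58. Their summed intensity was 6407 to 7496 at 25 ng/hr and 4558 to 4979 at 0 ng/hr. In bulk tissue, more cells of a type and more RNA per cell cannot be told apart. Folr2, a folate receptor of resident macrophages, changed most, with log2 signals of 7.31, 7.12 and 6.92 at 25 ng/hr, against 5.86, 5.52 and 5.98 at 0 ng/hr, a 2.51-fold rise (1.33, SE 0.15, adjusted p = 0.0175). Adgre1, the F4/80 antigen, was at 8.37, 8.73 and 8.52, against 7.48, 7.83 and 7.45 in controls (0.95, SE 0.15, adjusted p = 0.0307), and its other probes gave 0.90 and 0.58. Clec4f, a lectin restricted to Kupffer cells in mice, was at 9.30, 9.29 and 9.22, against 8.66, 8.34 and 8.31 in controls (0.83, SE 0.13, adjusted p = 0.0311). The treated arrays lay above the controls for all 3 genes. C1qa, a chain of complement C1q made by macrophages (0.68), Vsig4, a complement receptor (0.58), and Csf1r, the receptor for macrophage colony-stimulating factor (0.56), rose as well. The other probe of Csf1r gave 0.23 and did not pass. Cd68, a lysosomal glycoprotein, differed by 0.24 and did not pass. Without control replicate 1 the median was 0.61 and 2 of the 14 passed, and under median scaling the median was 0.52 and 1 passed.

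Aif1 and Ly86, genes of myeloid cells named after their values were seen, rose by 0.68 and 0.62. Of 6 genes of MHC class II presentation all lay above 0, with a median of 0.74. H2-DMa, which helps load peptides, rose by 0.81 (SE 0.14, adjusted p = 0.0461), and H2-Aa and H2-Ab1, chains of the class II molecule, differed by 0.88 and 0.85 without passing. Without control replicate 1 none of the 6 passed in limma, the median was 0.68, and H2-DMa kept an unadjusted p under 0.05. Under median scaling none passed either, and the median was 0.66. None of 8 genes of lipid-associated macrophages and injury passed, and all 8 lay below 0 with a median of -0.42. Gpnmb, the glycoprotein that marks lipid-laden macrophages, was at 6.33, 8.40 and 4.87 at 25 ng/hr, against 8.14, 9.25 and 8.75 at 0 ng/hr (-2.18, SE 0.74, adjusted p = 0.188), and the groups overlapped. Of 11 markers of T and NK cells 4 were tested, and of 8 markers of B and plasma cells 3 were tested. None passed, and the medians were 0.25 and 0.15. Ccl5, a chemokine of T and NK cells (0.72, adjusted p = 0.159), and Cd79b, a chain of the B cell receptor (0.49, adjusted p = 0.0829), had treated arrays wholly above the controls.

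**Figure D3:**
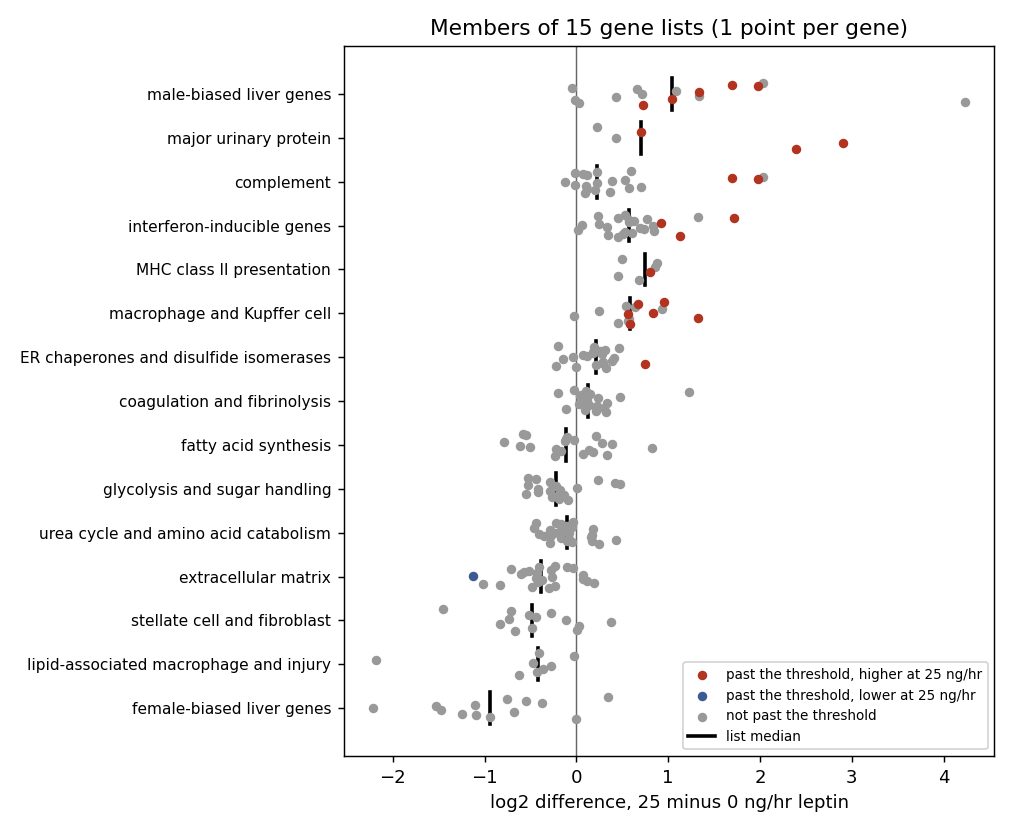
Log2 difference, 25 minus 0 ng/hr, for every tested member of 15 gene lists (points) with the list median (bar) and the members past the threshold in red (higher) or blue (lower). Male-biased genes have a median of 1.04, macrophage and Kupffer cell and interferon-inducible genes have medians of 0.58, and female-biased genes have a median of -0.94 with no member past the threshold.

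Enzymes of drug, steroid and lipid handling were among the largest rises. Ces3b, a carboxylesterase, had log2 signals of 12.53, 12.06 and 11.36 at 25 ng/hr, against 10.06, 9.90 and 10.18 at 0 ng/hr, a 3.82-fold rise (1.93, SE 0.28, adjusted p = 0.0288). Its other probes gave 1.53 and 1.51, while the other 5 carboxylesterases tested did not pass. Sult2a8, a hepatic sulfotransferase, was at 12.02, 11.80 and 11.44 at 25 ng/hr, against 10.36, 9.99 and 10.13 at 0 ng/hr, a 3.02-fold rise (1.59, SE 0.18, adjusted p = 0.0175). Cyp4f14, an omega-hydroxylase of fatty acids and leukotrienes, was at 12.62, 12.60 and 12.33 at 25 ng/hr, against 11.34, 11.07 and 11.40 at 0 ng/hr (1.25, SE 0.15, adjusted p = 0.0215). For all 3 the lowest treated array lay above the highest control. Of 26 conjugation enzymes tested, Sult2a8 and Ugt2b1 rose and the median was -0.0090. That median was 0.058 without control replicate 1, where Ugt2b1 did not pass. Gsta1 and Gsta2, alpha-class glutathione transferases, differed by -1.31 and -1.29 and did not pass. None of 21 cytochrome P450 genes of families 1 to 3 in the list passed. Of these 21, 4 lay above 0 and the median was -0.18, or -0.090 without control replicate 1. Treated arrays lay wholly below the controls for 6 of the 21 and wholly above for 1, against 11.7% and 11.2% of all features. Cyp2c67 and Cyp2d13, which the list does not hold and which were named after their values were seen, rose by 0.66 and 0.70.

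Other rises were spread over many functions. Nrep, a small protein first described in regenerating neurons, was at 10.79, 10.23 and 9.52 at 25 ng/hr, against 8.30, 8.17 and 8.13 at 0 ng/hr, a 3.95-fold rise (1.98, SE 0.36, adjusted p = 0.0464). Rgn, regucalcin, which takes part in vitamin C synthesis, was at 6.53, 6.34 and 6.21, against 5.40, 5.24 and 5.18 in controls (1.08, SE 0.12, adjusted p = 0.0175). Pim3, a serine/threonine kinase, was at 11.70, 11.86 and 11.56, against 10.99, 10.80 and 10.70 in controls (0.88, SE 0.11, adjusted p = 0.0228). Their arrays did not overlap between the groups. Rasgrp1, an activator of Ras, rose by 0.95, Omp, the olfactory marker protein, by 0.78, and Nrp1, a co-receptor for semaphorins and VEGF, by 0.68, where its other probe gave 0.74. Pdia6, a disulfide isomerase of the endoplasmic reticulum, rose by 0.75 (SE 0.11, adjusted p = 0.0284). It was the only one of 21 chaperone and isomerase genes to pass, and their median was 0.21. Glul, the glutamine synthetase of hepatocytes around the central vein, rose by 0.67, and the other 11 pericentral genes tested did not pass.

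**Figure D4:**
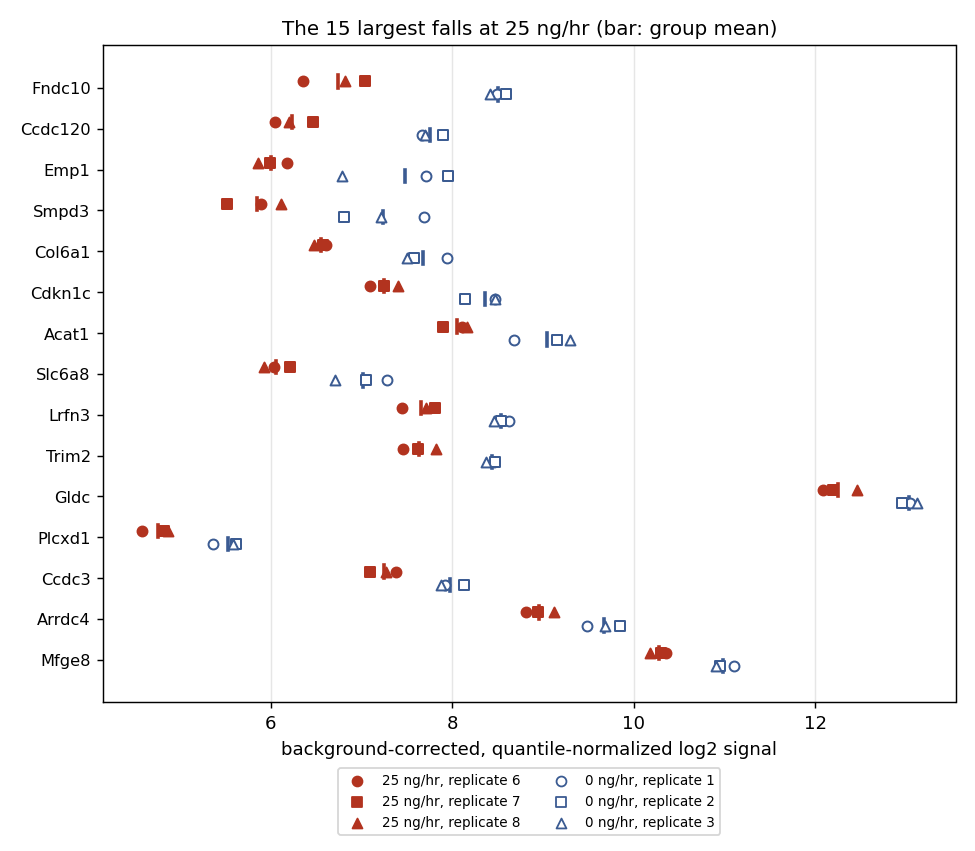
Log2 signals of the 15 largest falls, with the 3 arrays at 25 ng/hr (red, filled), the 3 at 0 ng/hr (blue, open) and bars at the group means. The treated arrays lie below the controls for every gene, and the means differ by -1.76 for Fndc10 and -0.71 for Mfge8.

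Among the features that passed, falls at 25 ng/hr were fewer than rises. Their median size was similar, at -0.72 for falls and 0.76 for rises on the log2 scale, but the largest rise, 2.91 for Mup4, exceeded any fall. Fndc10, a protein with a fibronectin type III domain, fell most, with log2 signals of 6.35, 7.04 and 6.82 at 25 ng/hr, against 8.50, 8.59 and 8.41 at 0 ng/hr. That is 3.39-fold lower (-1.76, SE 0.18, adjusted p = 0.0175). Ccdc120, a coiled-coil protein, was at 6.05, 6.47 and 6.20, against 7.66, 7.89 and 7.70 in controls, 2.86-fold lower (-1.52, SE 0.16, adjusted p = 0.0175). Emp1, an epithelial membrane protein, was at 6.17, 5.99 and 5.86, against 7.72, 7.95 and 6.78 in controls (-1.48, SE 0.27, adjusted p = 0.0461). Cdkn1c, the cell-cycle inhibitor p57, was at 7.10, 7.25 and 7.41, against 8.47, 8.14 and 8.47 in controls, 2.16-fold lower (-1.11, SE 0.13, adjusted p = 0.0175). No treated array reached a control for any of these genes. Fndc10 kept its call in 15 of the 17 alternative fits, and Ccdc120 and Col6a1 in 14.

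Collagen and matrix genes lay mostly below 0. Col6a1, a chain of collagen VI, was at 6.61, 6.58 and 6.48 at 25 ng/hr, against 7.95, 7.58 and 7.50 at 0 ng/hr, 2.18-fold lower (-1.12, SE 0.13, adjusted p = 0.0175), and its other probe gave -1.08. It was the only one of 24 extracellular matrix genes to pass. Of these 24, 4 lay above 0 and the median was -0.39, or -0.32 without control replicate 1. Loxl1, which cross-links elastin (-1.02, SE 0.19, adjusted p = 0.0550), Lum, lumican (-0.83, SE 0.20, adjusted p = 0.0927), and the fibrillar collagen gene Col3a1 (-0.51, SE 0.15, adjusted p = 0.152) did not pass, though their treated arrays all lay below the controls. Stellate cell and fibroblast markers had a median of -0.48 over 13 genes, none past the threshold, and of -0.22 without control replicate 1, the array in which Acta2 was high. Vwf, von Willebrand factor of endothelial cells, differed by -0.66 (SE 0.12, adjusted p = 0.0509). The sinusoidal endothelial list to which Vwf belongs did not lie below 0 as a whole. None of its 13 genes passed, 9 lay above 0 and the median was 0.07. Treated arrays lay wholly above the controls for 4 of the 13 and wholly below for 1, against 11.2% and 11.7% of all features. Mfge8, a secreted protein that bridges phagocytes and dying cells, fell by 0.71 on the log2 scale (SE 0.10, adjusted p = 0.0288), and its other probe gave -0.78.

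Several falls concerned metabolism. Smpd3, the neutral sphingomyelinase that makes ceramide, was at 5.90, 5.52 and 6.12 at 25 ng/hr, against 7.69, 6.81 and 7.22 at 0 ng/hr, 2.63-fold lower (-1.39, SE 0.23, adjusted p = 0.0382), while the other 18 sphingolipid genes tested did not pass. Acat1, the mitochondrial acetoacetyl-CoA thiolase of ketone metabolism, was at 8.10, 7.90 and 8.16, against 8.68, 9.15 and 9.30 in controls (-0.99, SE 0.17, adjusted p = 0.0398). It was the only one of 7 ketone body genes tested to pass, and the median of the 7 log2 differences was -0.011. Gldc, of the glycine cleavage system, was at 12.08, 12.19 and 12.46, against 13.04, 12.95 and 13.12 in controls (-0.79, SE 0.14, adjusted p = 0.0457). In all 3 genes that fell, the treated arrays lay below the controls. Slc6a8, the creatine transporter, fell by 0.96, Arrdc4, an arrestin-domain protein that responds to glucose, by 0.72, and Mt1, a zinc-binding metallothionein, by 0.58 on the log2 scale. Insig2, which retains the complex of SCAP and SREBP in the endoplasmic reticulum and was named after its values were seen, fell by 0.60, and its other probes gave -0.84 and -0.65. Further falls were found for Trim2, a ubiquitin ligase (-0.80), Lrfn3, a synaptic adhesion protein (-0.89), Ccdc3, a secreted coiled-coil protein (-0.73), and Plcxd1. The last was above background on no array at 25 ng/hr and was at least 1.54-fold lower there by the probe kept, while its other 2 probes gave smaller differences of -0.52 and -0.21 and did not pass.

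In the lists for leptin and insulin action no gene passed, with 1 gene just outside the threshold. Igfbp2, an insulin-like growth factor binding protein, had log2 signals of 9.73, 9.64 and 8.64 at 25 ng/hr, against 7.27, 5.47 and 6.24 at 0 ng/hr. The treated arrays all lay above the controls and the difference was 3.01 (SE 0.57), with an adjusted p of 0.0531. A further probe of Igfbp2 gave 2.79 (SE 0.44), and in the fit with every probe as a feature both passed, at adjusted p of 0.0486 and 0.0302. Igfbp2 passed as well without control replicate 1 (3.49, adjusted p = 0.0498). None of the other 15 genes of the IGF and insulin list passed, and Igf1 differed by 0.35 and Igfals, its carrier, by 0.67. Lepr, the leptin receptor, was at 4.79, 4.79 and 4.43 at 25 ng/hr, against 4.85, 5.09 and 4.68 at 0 ng/hr, near background. It was detected on 0 of 3 arrays at 25 ng/hr and on 2 of 3 at 0 ng/hr, and the groups overlapped (-0.20, SE 0.14, adjusted p = 0.509). None of 16 genes of leptin and JAK-STAT signalling passed, with a median of -0.15, or -0.048 without control replicate 1. Socs3, the feedback inhibitor of leptin signalling, differed by -0.29, and Socs2, a growth hormone target, by 1.01 (SE 0.32, adjusted p = 0.165).

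Lipid and sugar metabolism gave few calls. Scd1, the stearoyl-CoA desaturase, was at 14.18, 14.61 and 14.78 at 25 ng/hr, against 14.65, 14.78 and 14.64 at 0 ng/hr, and the groups overlapped (-0.17, SE 0.15, adjusted p = 0.621). None of 20 genes of fatty acid synthesis passed (median -0.11). Fasn, the fatty acid synthase (-0.62, SE 0.24, adjusted p = 0.235), and Acaca, acetyl-CoA carboxylase (-0.59, SE 0.22, adjusted p = 0.227), had treated arrays below all controls. They were the only 2 of the 20, no larger a share than the 11.7% of all features. Of the 20, 8 lay above 0, up to 0.82 for Lpin1 (adjusted p = 0.235), whose groups overlapped. Of 19 genes of glycolysis and sugar handling none passed, 4 lay above 0 and the median was -0.22. For 10 of these 19 the treated arrays all lay below the controls, where 11.7% of all features did. None of 19 genes of sterol synthesis (median 0.21), 21 of fatty acid oxidation (-0.06), 14 of gluconeogenesis (-0.05), 29 of the urea cycle and amino acid catabolism (-0.11) and 27 of the respiratory chain (-0.05) passed. The sterol synthesis median was 0.094, and that of fatty acid oxidation -0.11, without control replicate 1. None of 18 lipoprotein genes passed, but without that array Apom, the carrier of sphingosine phosphate (0.92, adjusted p = 0.0419), and Apoa4, an apolipoprotein of the intestine and fatty liver (-1.69, adjusted p = 0.0421), did. A p that misses the threshold does not show that levels were the same. In all, 44 lists held 603 tested genes, and 28 of the 90 calls were among them, where 0.887% of all features passed. The lists were chosen with earlier results of these data known, so nothing is read from that count.

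Signals at 12.5 ng/hr lay between those of the other doses for 68 of the 90 genes, that is for 48 of the 63 that rose (76.2%) and 20 of the 27 that fell (74.1%), against 33.7% of all features. The 90 were chosen for their difference between the outer doses, which by itself raises that share, and nothing is read from it. The comparisons share their controls, so the 12.5 ng/hr values are given only beside the others. Mup4, for instance, averaged 6.41, 7.37 and 9.32 on the log2 scale at 0, 12.5 and 25 ng/hr, and Sult2a8 averaged 10.16, 11.04 and 11.75. Adgre1 averaged 7.59, 8.39 and 8.54, with the 12.5 ng/hr mean closer to that at 25 than to that at 0 ng/hr. None of the 90 passed the test of 12.5 minus 0 ng/hr, in which limma called 0 of 10141 features (0%) and 1167 had an unadjusted p under 0.05.

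A smaller set separated 25 from 12.5 ng/hr as well. In that contrast 15 of the 90 passed, where 0.424% of all features did. It uses the same 3 arrays at 25 ng/hr by which the 90 were chosen, so a raised share is built in and nothing is read from it. Gbp2b averaged 4.60, 4.56 and 6.32 at 0, 12.5 and 25 ng/hr, and Cxcl13 4.52, 4.47 and 5.71, so that the 12.5 ng/hr means lay within 0.1 of the controls. Wnt2, a secreted signal made by sinusoidal endothelium in the liver and named after its values were seen, rose by 0.75 at 25 ng/hr and was -0.22 at 12.5 minus 0 ng/hr. Col6a1 (7.68, 8.02 and 6.56), Ccdc3 (7.98, 8.67 and 7.25), Mfge8 (10.98, 11.25 and 10.28) and Emp1 (7.48, 8.01 and 6.01) were highest at 12.5 ng/hr and lowest at 25 ng/hr. The medians of the matrix list were 0.34 for 12.5 minus 0 and -0.39 for 25 minus 0 ng/hr. Those of the lipid-associated macrophage and injury list were 0.90 and -0.42. For interferon-inducible genes the medians were 0.52 and 0.58, so the list as a whole did not follow Gbp2b. Ifit3, of that list, differed by 1.24 at 12.5 minus 0 ng/hr and by 0.92 at 25 minus 0 ng/hr. Macrophage and Kupffer cell markers had medians of 0.53 and 0.58, and MHC class II genes of 1.11 and 0.74.

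**Figure D5:**
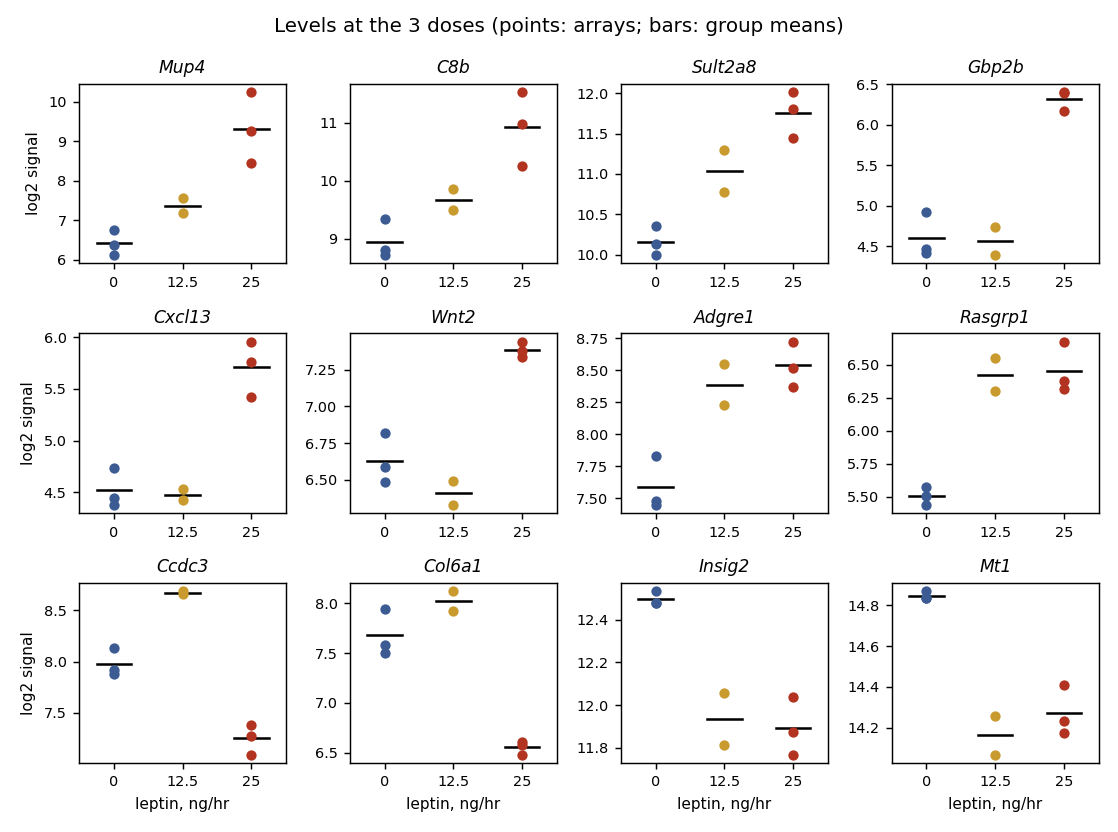
Log2 signal of 12 genes past the threshold at 25 against 0 ng/hr, by leptin dose in ng/hr (points: arrays, 3, 2 and 3; bars: group means). Mup4, C8b and Sult2a8 lie in between at 12.5 ng/hr, Gbp2b and Cxcl13 are near the control level there, Adgre1 and Rasgrp1 are near the 25 ng/hr level, and Ccdc3 is highest at 12.5 ng/hr.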

How the data were processed

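Liver RNA of 8 labelled samples was measured on 1 Illumina BeadChip. The first table the authors deposited lists 25697 probes, each with its average intensity (linear, not scaled between arrays) and its detection p-value on every array, per the file headers. In the second deposited table the authors multiplied the intensities of each array by 1 factor, 0.927 to 1.08, to a common mean of 493, and added dose means and their ratios, which were not used. The value table of the series matrix equals the scaled intensities, with no centring (column medians 68.4 to 74.2). Frozen livers were extracted by Trizol and biotinylated cRNA was hybridised, per the labels. Neither the scanner software nor the build of the annotation was given in the sources used here.

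Background correction, quantile normalization and the log2 step were done on the unscaled intensities by neqc (limma version 3.58.1, R version 4.3.3, offset 16), with the background taken from the detection p-values. Probes detected (p under 0.05) on 2 or more arrays entered, with the brightest per gene on average standing for the gene, which left 10141 features, 9811 with a current symbol. Names come from the deposited annotation, updated with RefSeq names (assembly GRCm38.p6), and 900 probes matched no current symbol. All 8 arrays entered 1 limma fit (lmFit, eBayes, two-sided) with 3 group means, and p-values were adjusted by Benjamini-Hochberg over all features at a threshold of 0.05. Errors are standard errors (SE) of that fit. An exact permutation test of 3 against 3 arrays cannot go below 0.1 and was not used. Where no array of the dimmer group was above background, the fold is a lower bound, the brighter mean against the lowest signal detected per array or the probe's own where higher. Group sums add the deposited scaled intensities.

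Named were Igfbp2, Lepr and Scd1, the 15 largest rises and 15 largest falls past the threshold with a current symbol and no overlap, the 5 lowest p-values among the rest, and from each of 44 gene lists every member past the threshold, filled up to 3 by lowest p. Serpina1e, Acta2, and other list members given without a call were chosen after their values were seen. Some genes that the rule selects are left out of the text. The genes and lists were chosen with earlier results of these data known, so their counts are descriptions. Promoter sequences are RefSeq's. The fit was tested on simulated data. Precision is limited by the number of arrays. Figures were drawn with matplotlib version 3.10.9.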

Additional observations from a re-analysis of the deposited data

How the results depend on the processing

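All 90 features that passed kept their direction in all 17 alternatives in which they were tested, but the number past the threshold moved widely. The 90 (63 higher, 27 lower) became 35 (20 and 15) with median scaling, where 57.1% of the calls were higher against 70.0% as reported. The calls numbered 195 (130 and 65) without background correction, 188 (122 and 66) when the authors' scaled intensities were used, 206 (134 and 72) under a trended prior and 15 (11 and 4) with only the 0 and 25 ng/hr arrays in the fit. With detection required on all 8 arrays 132 features passed (89 and 43). Leaving out each array in turn gave 0 to 131 calls, 0 to 84 higher and 0 to 47 lower; leaving out either 12.5 ng/hr array gave 15. The causes were not tested, except that fits with fewer arrays have fewer residual degrees of freedom by construction.

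Of the genes named, 7 differences changed sign, none past the threshold. Ambp was at -0.036 with median scaling. Leaving out 1 array at a time, Reg1 ranged from -2.64 to 0.56, Adipoq from -0.97 to 0.18 and Lep from -0.82 to 0.26, each above 0 without replicate 1 at 0 ng/hr. Cela3b ranged from -0.21 to 0.024, above 0 without replicate 2 at 0 ng/hr, and Scd1 from -0.30 to 0.0098, above 0 without replicate 6 at 25 ng/hr. Elane ranged from -0.22 to 0.081, above 0 without replicate 7 at 25 ng/hr. No paired analysis was possible because the groups share no replicate number. For 23 of the 90 genes 32 further probes were above background, 31 of them with the same direction and 13 past the threshold; the probe that went the other way belongs to Ncapd2 (-0.65 for the probe kept, 0.14 for the other). Of 51 falls over 2-fold that did not pass, 26 stayed over 2-fold and 7 changed sign without replicate 1 at 0 ng/hr; of the 24 called changes over 2-fold, 23 stayed over it.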

Other observations

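Secreted proteins of the liver outside the complement and urinary protein families were also among the rises, here named after their values were seen. Ang, the ribonuclease angiogenin, was at log2 signals of 12.74, 12.30 and 12.27 at 25 ng/hr, against 11.72, 11.30 and 11.45 at 0 ng/hr, and rose by 0.95 (SE 0.15). Afm, the vitamin E-binding plasma protein afamin, was at 10.22, 10.07 and 10.05, against 9.36, 9.21 and 9.11 in controls, and rose by 0.89 (SE 0.14). The lowest array at 25 ng/hr lay above the highest control for both. Upp2, uridine phosphorylase, rose by 0.66, with other probes at 0.88, 0.95 and 0.84, and Aadac, a deacetylase of the endoplasmic reticulum, rose by 0.72.

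Genes used in DNA synthesis and packaging gave a mixed picture. Tk1, thymidine kinase, rose by 0.68 (SE 0.10), but its other 2 probes gave 0.02 and 0.24 and did not pass. H4c8 and H4c17, which encode histone H4, rose by 0.72 and 0.68, and histone H4 genes are alike enough for their probes to share transcripts. At 12.5 minus 0 ng/hr the same genes differed by -0.21 and -0.66. Of 28 cell cycle genes listed 19 were tested, and 1 passed, Cdkn1c, which fell. The median of the 19 was -0.044, or -0.0097 without control replicate 1.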
